A study of Mus musculus with 6 samples.

Results

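The BCL2 family decides whether a cell keeps or loses the integrity of its mitochondrial outer membrane, and 10 of its core genes were followed by name in RNA-seq of A20 cells, a mouse B cell lymphoma line from the BALB/C strain. These were the anti-apoptotic genes Bcl2, Bcl2l1 (BCL-X), Bcl2l2 (BCL-W) and Mcl1, the effectors Bax and Bak1, and the BH3-only genes Bcl2l11 (BIM), Bbc3 (PUMA), Pmaip1 (NOXA) and Bid. All 10 were present among the 27179 genes counted, and 9 of them were among the 12418 genes that passed the filters and were tested. The 6 libraries formed 3 groups of 2 replicates. Wild-type A20 cells were not transduced. Control sgRNA cells carried the lentiviral TETact-v3 system with a non-targeting sgRNA, and Cd4 sgRNA cells carried the same system with an sgRNA aimed at the promoter of Cd4, a T-cell surface receptor gene that B cells keep silent. In TETact-v3, dCas9 with SunTag epitopes recruits the TET1 catalytic domain, a DNA demethylating enzyme, and MS2 aptamers in the sgRNA recruit the p65-hsf1 activator. Per the study's methods, transduced cells were enriched by fluorescence-activated sorting, and both TETact-v3 groups were assayed on day 7 after sgRNA transduction. Transduction, sorting and the TETact-v3 proteins therefore cannot be told apart in a comparison with wild-type A20. The replicates were described as independently prepared, and with 2 per group the p-values measure the spread between these preparations only. The main tests estimated each gene's spread jointly over the 3 groups, so a comparison of 2 groups also carries the spread of the other.

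In healthy cells the anti-apoptotic proteins hold BAX, BAK and the BH3-only proteins in check. BH3-only proteins are raised or activated by stress, bind the anti-apoptotic proteins or the effectors, and free BAX and BAK to form pores, from which cytochrome c reaches the cytosol and activates caspase-9 on the apoptosome. In B cells BIM removes autoreactive and antigen-receptor-stimulated cells, MCL1 and BCL-X keep activated and germinal centre cells alive, and BCL2 is a lymphoma oncogene. These proteins are also regulated by splicing, phosphorylation, cleavage and turnover, none of which is read by mRNA counts per gene. The isoforms of BIM, BCL-X and MCL1 that differ in activity were counted together.

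Libraries held between 23194920 and 121623410 counts, the control sgRNA libraries being the deepest, and 3 counts corresponded to between 0.0270 and 0.140 CPM (counts scaled to a common library size by TMM). Cd4 checked the labels, at 945 and 913 CPM in the Cd4 sgRNA libraries and at most 1.53 CPM in the other 4. The 10 B-cell markers were all expressed, with a summed level of 8122 and 8112 CPM in wild-type A20, 5014 and 4413 CPM in Cd4 sgRNA cells and 5201 and 8154 CPM in control sgRNA cells. The 8 T-cell markers summed to at most 0.865 CPM in any library, with Cd3e and Cd8b1 at 0 counts in all 6, and the 5 myeloid markers to at most 6.38 CPM, with Cd14 at 0. The 2 control sgRNA libraries stood farther apart than the replicates of the other groups, where chi-square over its degrees of freedom was 243 against 6.90 and 7.99, although this value also grows with depth. Mitochondrially encoded RNA took 2.65% and 2.69% of the counts in wild-type A20, 5.96% and 6.90% in Cd4 sgRNA cells, and 6.63% and 11.5% in replicates 1 and 2 of control sgRNA cells.

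In wild-type A20 the members spanned a wide range of levels per length of transcript (RPKM, CPM per kilobase of exon). Bcl2l1 was highest at 261 ± 3.59 RPKM (SD, n = 2), above 97.6% of the genes tested. Bax followed at 175 ± 2.67, then Bak1 at 129 ± 0.899, and these 3 levels were separated by more than the spread of the replicates. Mcl1 at 86.9 ± 3.38 RPKM and Bid at 85.8 ± 3.90 did not differ beyond their spread. Bcl2l11 came next at 71.2 ± 1.81 RPKM, ahead of Bbc3 at 26.0 ± 0.540 and Pmaip1 at 12.3 ± 0.354. Bcl2 was near the bottom of the expressed genes, at 0.174 ± 0.0346 RPKM and above only 7.64% of the genes tested. Bcl2l2 was close to undetected, with 1 and 0 counts in wild-type A20, 0 and 1 in Cd4 sgRNA cells and 5 in each control sgRNA library, and was not tested. A20 cells thus held abundant transcripts of Bcl2l1, Mcl1 and both effectors, and very few of Bcl2.

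In Cd4 sgRNA cells the order changed at the top. Bax at 186 ± 10.9 RPKM lay above Bcl2l1 at 142 ± 7.37, with Bak1 at 119 ± 4.52 and Bid at 61.6 ± 2.21 below them. Bcl2l11 stood at 21.8 ± 1.10 RPKM and Bbc3 at 5.44 ± 1.55, the latter not separated from Pmaip1 at 6.59 ± 0.707. In control sgRNA cells the replicates of several members were too far apart for an order, with Bcl2l1 at 193 ± 44.8 RPKM against Bax at 189 ± 0.413, Bcl2l11 at 38.3 ± 13.4 against Bid at 45.9 ± 2.59, and Bbc3 at 15.9 ± 8.86 against Pmaip1 at 11.6 ± 4.29. Bcl2 was the lowest of the 9 tested members in all 6 libraries.

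Expression was compared first between control sgRNA and wild-type A20 cells, which asks what the TETact-v3 system and its delivery come with in the absence of a target. Of the 9 tested members 3 fell, namely Bid, Bcl2l11 and Bak1, and none rose (edgeR quasi-likelihood test, Benjamini-Hochberg adjusted p under 0.05 over all 12418 genes). By the same threshold 28% of all genes were called, 13.5% lower and 14.5% higher. At an unadjusted p under 0.05 there were 6 members, against 42.6% of all genes. The median log2 fold change of the 9 members was -0.44 and that of all genes -0.0012. Groups did not overlap for 8 of the 9 members, which held for 67.1% of all genes. Leaving out wild-type replicate 1 ended all 3 calls, and leaving out wild-type replicate 2 or either Cd4 sgRNA library left only that of Bid, while without control sgRNA replicate 1 there were 5 lower and 2 higher calls and without replicate 2 there were 7 and 1.

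Between Cd4 sgRNA and wild-type A20 cells, the comparison of the complete targeted system with the parental line, 5 members fell and 1 rose. Those that fell were Bcl2l11, Bbc3, Bcl2l1, Bid and Mcl1, and Bcl2 was the one that rose, and of all genes 20.5% were called, 10.7% lower and 9.85% higher. At an unadjusted p under 0.05 there were 7 members, against 37.6% of all genes. The median log2 fold change was -0.62 for the members and 0.0045 for all genes. None of the 9 members overlapped between these groups, which also held for 79.8% of all genes, so separation alone says little with 2 libraries each. Leaving out any one of the 4 libraries of these groups ended all 6 calls although the directions held, and leaving out either control sgRNA library gave 6 lower calls and 1 higher. When only Cd4 sgRNA and wild-type cells were fitted, 7 members fell and 1 rose at the threshold, beside 61.7% of all genes called. Of the 10 B-cell markers 3 fell and 0 rose in each TETact-v3 group against wild type (of all genes, 28% were called in control sgRNA and 20.5% in Cd4 sgRNA cells), among them the B-cell receptor genes Cd79a and Cd79b in both. All 10 log2 fold changes were negative in Cd4 sgRNA cells and 8 of 10 in control sgRNA cells, where Blk and Ebf1 were positive at 0.46 and 0.26 without passing the threshold. Of the 4 plasma cell genes, Irf4 and Sdc1 rose in both groups, Xbp1 fell in both and Prdm1 rose in control sgRNA cells. The part of these differences, or of the higher mitochondrial share, in the members' values was not tested.

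Between Cd4 sgRNA and control sgRNA cells, which differ by the guide, 0 of 9 members were called by edgeR, where 0.0725% of all genes were called, 0.0242% higher and 0.0483% lower. The groups did not overlap for 8 members, which held for 59.7% of all genes. At an unadjusted p under 0.05 there were 6 members (Bid, Bbc3, Bcl2l11, Pmaip1, Bak1 and Bcl2l1), against 24.9% of all genes. DESeq2 called 4, with Bid higher and Bbc3, Bcl2l11 and Pmaip1 lower, and voomLmFit called 0. The count turned on the control sgRNA libraries, since without replicate 1 of them edgeR called 2 members higher and 5 lower, and without replicate 2 it called 2 higher and 4 lower. All 3 comparisons share groups pairwise and their values are not independent of each other.

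**Figure D1:**
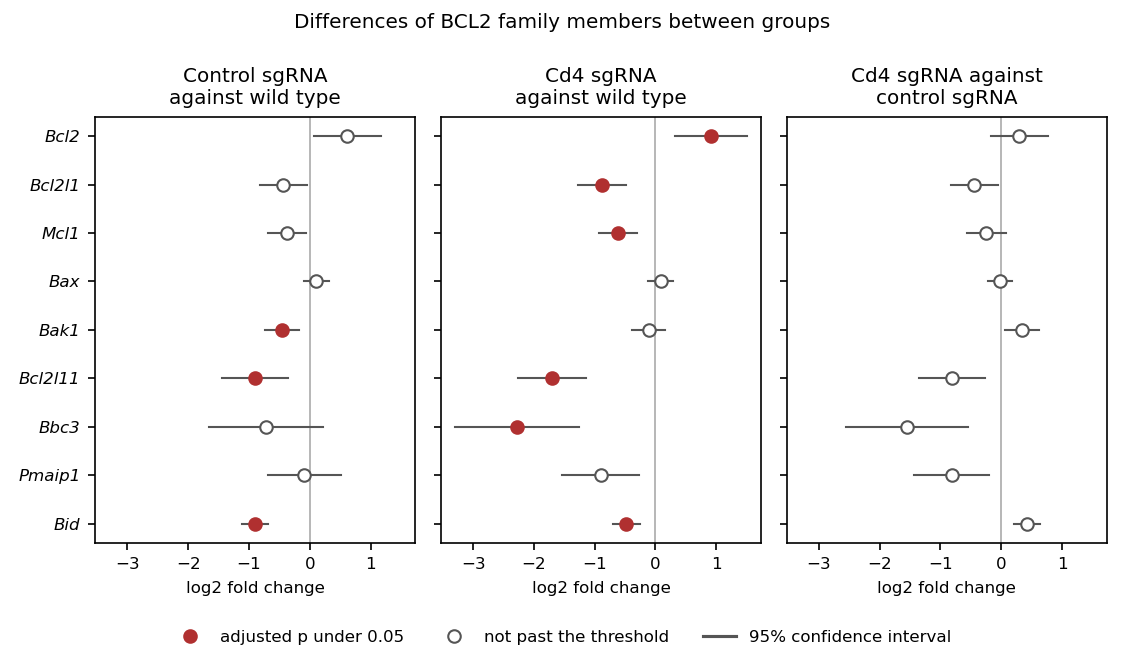
Log2 fold change (horizontal axis) of the 9 tested members (rows) in 3 comparisons (panels), with 95% confidence intervals from the edgeR fit of all 6 libraries; filled points passed an adjusted p of 0.05. The 3 members that fell in control sgRNA cells were Bak1, Bcl2l11 and Bid, the 5 that fell in Cd4 sgRNA cells extend to -2.27 for Bbc3, and no point is filled in the comparison of the TETact-v3 groups.

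Among the anti-apoptotic genes, Bcl2l1 was the most abundant, and its product BCL-X in the long form protects mitochondria. Bcl2l1 was at 614 and 626 CPM in wild-type A20, 383 and 533 in control sgRNA cells and 350 and 325 in Cd4 sgRNA cells. All 4 TETact-v3 libraries lay below both wild-type libraries, and control sgRNA replicate 2 was the nearest to them. Against wild-type A20, Bcl2l1 fell in Cd4 sgRNA cells by 0.88 on the log2 scale (SE 0.16, 95% confidence interval -1.27 to -0.49, edgeR adjusted p = 0.018), which is 1.84-fold lower. In control sgRNA cells the log2 fold change was -0.44 (SE 0.16, edgeR adjusted p = 0.088) and did not pass the threshold, but DESeq2 gave an adjusted p of 0.038. Between the TETact-v3 groups it was -0.44 (interval -0.83 to -0.054, edgeR adjusted p = 0.17).

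Mcl1 encodes a short-lived protein on which many B cell tumours depend. Its levels were 295 and 311 CPM in wild-type A20, 205 and 264 in control sgRNA cells and 196 and 199 in Cd4 sgRNA cells. As for Bcl2l1, the 4 TETact-v3 libraries were below the wild-type ones and control sgRNA replicate 2 was the closest. Mcl1 fell in Cd4 sgRNA cells by 0.62 (SE 0.13, interval -0.94 to -0.30, edgeR adjusted p = 0.026), to a level 1.53-fold lower, while the log2 fold change in control sgRNA cells was -0.37 (SE 0.13, edgeR adjusted p = 0.080, DESeq2 adjusted p = 0.044). Cd4 sgRNA and control sgRNA cells were not separated by the test (log2 fold change -0.25, interval -0.56 to 0.072, edgeR adjusted p = 0.28). Huwe1, a ubiquitin ligase that marks MCL1 for degradation, rose in both groups against wild-type A20, by a log2 fold change of 0.88 in Cd4 sgRNA cells (edgeR adjusted p = 0.0029) and 0.61 in control sgRNA cells (edgeR adjusted p = 0.0054).

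Bcl2 went the other way from a very low level. It had 54 and 33 counts in wild-type A20, 220 and 161 in control sgRNA cells and 78 and 110 in Cd4 sgRNA cells, equal to 1.16 and 1.54 CPM, 1.98 and 1.99 CPM, and 2.38 and 2.48 CPM. The groups did not overlap and stood in the order wild type, control sgRNA, Cd4 sgRNA. Bcl2 rose in Cd4 sgRNA cells with a log2 fold change of 0.91 (SE 0.24, interval 0.32 to 1.50, edgeR adjusted p = 0.045), 1.88-fold. This call lay close to the threshold and was lost with voomLmFit (adjusted p = 0.058), without a filter on low counts (edgeR adjusted p = 0.052) and with a replicate block (edgeR adjusted p = 0.069). In control sgRNA cells the log2 fold change was 0.62 (SE 0.23, edgeR adjusted p = 0.090). It was 0.84 (edgeR adjusted p = 0.036) in 1 random thinning of their counts to the depth of the other libraries. A single draw leaves the expected level unchanged and adds noise at such low counts, so no effect of depth is read from it. The difference between the TETact-v3 groups was 0.30 (interval -0.17 to 0.76, edgeR adjusted p = 0.35). In GENCODE M21, 6.09% of the exonic bases of Bcl2 also lie in exons of the antisense gene D630008O14Rik, and whether counting used strand is not stated.

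The Bcl2 promoter was dense in CpG, the dinucleotide that TET1 acts on when methylated. The 250 bases before its start held 36 CpG, more than 97.4% of the 32851 RefSeq promoters of GRCm38.p6, whose median was 6. Density was not particular to Bcl2, since 1 of the 3 Bbc3 windows held 37 CpG, the 2 of Bcl2l11 held 24 and 30 and that of Mcl1 held 26, while the 3 of Bcl2l1 held 0, 11 and 12. The Bcl2 sequence, from chr1:106714291-106714540 on the minus strand of GRCm38.p6 in RefSeq, is shown for this density, with each CpG in capitals. No methylation data were analysed here.
Bcl2: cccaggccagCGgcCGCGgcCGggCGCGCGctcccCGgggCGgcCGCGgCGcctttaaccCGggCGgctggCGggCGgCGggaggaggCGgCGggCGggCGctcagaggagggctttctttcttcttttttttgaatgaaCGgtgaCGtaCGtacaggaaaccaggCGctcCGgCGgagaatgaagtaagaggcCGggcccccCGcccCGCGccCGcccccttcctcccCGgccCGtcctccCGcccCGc

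Of the effectors, Bax was called in no comparison and Bak1 fell in control sgRNA cells. Bax was at 150.5 and 154 CPM in wild-type A20, 164 and 164 in control sgRNA cells and 168 and 155 in Cd4 sgRNA cells. These values lay within a narrow band in all 6 libraries. Its log2 fold changes were 0.11 in control sgRNA cells (interval -0.093 to 0.31, edgeR adjusted p = 0.36) and 0.086 in Cd4 sgRNA cells (interval -0.12 to 0.29, edgeR adjusted p = 0.50) against wild-type A20. Between the TETact-v3 groups the value was -0.024 (interval -0.23 to 0.18, edgeR adjusted p = 0.86), and the 3 intervals together reach from -0.23 to 0.31.

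Bak1 was at 256 and 259 CPM in wild-type A20, 207 and 170 in control sgRNA cells and 232 and 245 in Cd4 sgRNA cells. Both control sgRNA libraries were below all others, and Cd4 sgRNA cells lay between the other groups. Bak1 fell in control sgRNA cells by 0.45 (SE 0.11, interval -0.73 to -0.18, edgeR adjusted p = 0.032), 1.37-fold lower, a call not kept when only these 2 groups were fitted (edgeR adjusted p = 0.087). In Cd4 sgRNA cells its log2 fold change against wild-type A20 was -0.11 (interval -0.39 to 0.16, edgeR adjusted p = 0.51), and against control sgRNA cells 0.34 (interval 0.065 to 0.62, edgeR adjusted p = 0.16). Exons of Ggnbp1 on the opposite strand cover 25.5% of the exonic bases of Bak1 in GENCODE M21, and those of the readthrough gene Gm45808 12.2% of Bax.

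Among the members, the largest differences were those of the BH3-only genes Bbc3 and Bcl2l11. Bcl2l11, whose product BIM binds all anti-apoptotic members and activates BAX and BAK, was at 352 and 365 CPM in wild-type A20, 145 and 241 in control sgRNA cells and 114 and 106 in Cd4 sgRNA cells. The 3 groups did not overlap. Bcl2l11 fell by 1.71 in Cd4 sgRNA cells (SE 0.23, interval -2.27 to -1.15, edgeR adjusted p = 0.0079), a level 3.27-fold lower, and by 0.89 in control sgRNA cells (SE 0.22, interval -1.44 to -0.35, edgeR adjusted p = 0.032), 1.86-fold lower. The size in control sgRNA cells depended on the replicate, at -1.30 without replicate 2 and -0.55 without replicate 1. Between Cd4 sgRNA and control sgRNA cells the log2 fold change was -0.81 (interval -1.36 to -0.27, edgeR adjusted p = 0.14, DESeq2 adjusted p = 0.0059).

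Bbc3 encodes PUMA, the p53-responsive BH3-only protein. It was at 50.7 and 52.2 CPM in wild-type A20, 19.0 and 43.7 in control sgRNA cells and 12.9 and 8.58 in Cd4 sgRNA cells. Both Cd4 sgRNA libraries were below every other library, and the control sgRNA replicates differed by 2.30-fold. Bbc3 fell in Cd4 sgRNA cells by 2.27 (SE 0.42, interval -3.29 to -1.25, edgeR adjusted p = 0.018), or 4.83-fold, the largest difference of any tested member. Against wild-type A20 the control sgRNA value was -0.72 (SE 0.38, interval -1.65 to 0.21, edgeR adjusted p = 0.20), and it was -1.43 without replicate 2 (edgeR adjusted p = 0.0024) and -0.21 without replicate 1 (edgeR adjusted p = 0.35). Between the TETact-v3 groups it was -1.55 (interval -2.55 to -0.55, edgeR adjusted p = 0.13, DESeq2 adjusted p = 5.2e-04).

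Bcl2l11 and Bbc3 are genes that both answer to FOXO transcription factors. For each, the promoter window is shown that holds 1 match to TGTTTAC, the core FOXO recognition sequence, searched on both strands and given in capitals. Other motifs searched in the same bases had matches too. NF-kB had 2 in another Bbc3 window and 1 in a Bcl2l1 window (7.25% of all promoters hold it). The p53 half-site matched the Bax window and no Bbc3 window (7.13% of all promoters). Of all 32851 promoters 3.17% hold TGTTTAC in the same 250 bases before the start. Of the 14 promoter windows listed for 9 members, these were the 2 with a match. It lay 227 to 221 bases before 1 of 2 starts listed for Bcl2l11 (as GTAAACA on the strand shown). For Bbc3 it lay 167 to 161 bases before 1 of 3 starts listed. The Bcl2l11 window is chr2:128125788-128126037 and that of Bbc3 chr7:16310011-16310260, both on the plus strand of GRCm38.p6 in RefSeq. The Bbc3 window lies in an intron of transcripts that begin further upstream. A match of letters is not a binding site.
Bcl2l11: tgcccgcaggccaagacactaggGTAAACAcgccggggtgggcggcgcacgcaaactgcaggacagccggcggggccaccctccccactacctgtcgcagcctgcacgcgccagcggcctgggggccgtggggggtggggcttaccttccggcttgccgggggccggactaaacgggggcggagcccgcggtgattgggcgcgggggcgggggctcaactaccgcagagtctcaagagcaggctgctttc
Bbc3: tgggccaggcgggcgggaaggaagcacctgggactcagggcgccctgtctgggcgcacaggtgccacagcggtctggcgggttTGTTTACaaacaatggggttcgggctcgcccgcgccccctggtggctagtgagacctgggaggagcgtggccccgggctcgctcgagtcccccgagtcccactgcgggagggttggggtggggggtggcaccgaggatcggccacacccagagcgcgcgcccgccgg

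Pmaip1 encodes NOXA, which binds MCL1. Its levels were 33.3 and 31.9 CPM in wild-type A20, 22.7 and 38.8 in control sgRNA cells and 18.8 and 16.2 in Cd4 sgRNA cells. The control sgRNA replicates lay on either side of wild type, and the Cd4 sgRNA libraries were the lowest. In Cd4 sgRNA cells the log2 fold change against wild-type A20 was -0.90 (SE 0.26, interval -1.53 to -0.27, edgeR adjusted p = 0.056), just short of the threshold, and DESeq2 gave an adjusted p of 0.0025. The control sgRNA value was -0.089 (interval -0.69 to 0.51, edgeR adjusted p = 0.81), which turned to 0.27 without replicate 1 (edgeR adjusted p = 0.0070) and was -0.52 without replicate 2 (edgeR adjusted p = 1.4e-05). Between the TETact-v3 groups it was -0.81 (interval -1.43 to -0.20, edgeR adjusted p = 0.15).

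Bid links death receptors to mitochondria after cleavage by caspase-8. Unlike Bcl2l11, Bbc3 and Pmaip1, but like the further BH3-only gene Bmf, it was lowest in control sgRNA cells. It was at 167 and 157 CPM in wild-type A20, 90.3 and 83.3 in control sgRNA cells and 119 and 114 in Cd4 sgRNA cells. The groups did not overlap, the control sgRNA libraries were lowest and their replicates agreed within 1.08-fold. Bid fell in control sgRNA cells by 0.90 (SE 0.090, interval -1.12 to -0.69, edgeR adjusted p = 0.0024), 1.87-fold lower, and in Cd4 sgRNA cells by 0.48 (SE 0.090, interval -0.69 to -0.26, edgeR adjusted p = 0.018), 1.39-fold lower. Between the TETact-v3 groups its log2 fold change was 0.42 (interval 0.21 to 0.64, edgeR adjusted p = 0.12, DESeq2 adjusted p = 0.0049). Exons of its neighbour Bcl2l13 on the opposite strand cover 17.7% of the exonic bases of Bid, and Bcl2l13 itself did not pass the threshold in any comparison. The genes tested with the most similar profile to Bid over the 6 libraries (Pearson's r of log2 CPM) were Zfp398 at 0.999, Gal3st4 at 0.997 and Il9r at 0.997, and 382 genes were above 0.95, which with 3 groups of 2 libraries is a description only.

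**Figure D2:**
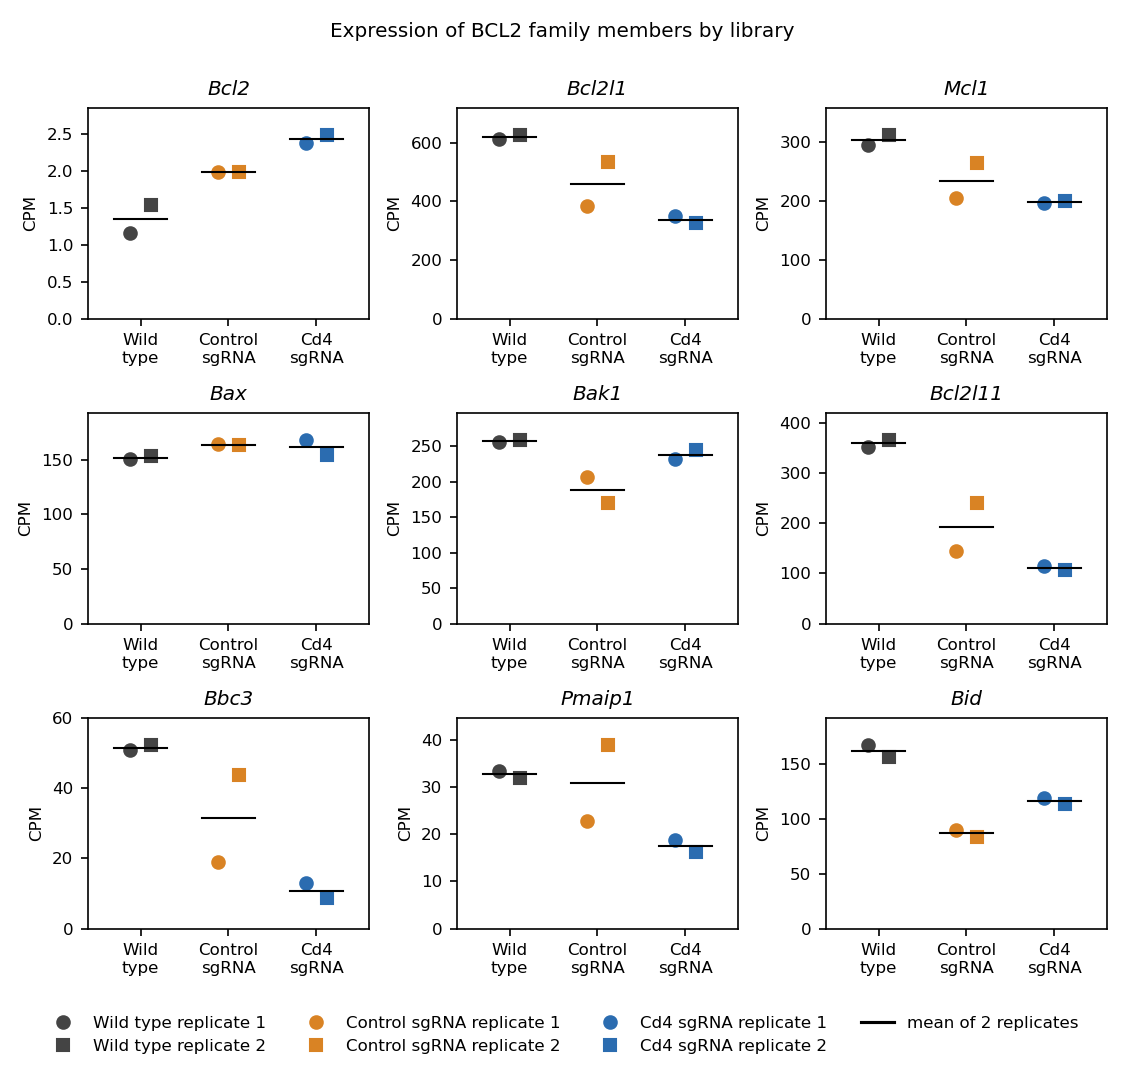
Expression in CPM (vertical axis, starting at 0 and scaled to each gene) of the 9 tested members in the 6 libraries; circles are replicate 1, squares replicate 2 and lines the mean of the 2 replicates of a group. Bcl2l11 and Bbc3 are lowest in Cd4 sgRNA cells, Bid and Bak1 are lowest in control sgRNA cells, and Bax lies between 150.5 and 168 CPM throughout.

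The control sgRNA replicates differed in a way that followed the gene. Relative to the wild-type mean, replicate 2 was nearer than replicate 1 for 6 of the 9 members and farther for 3 (Bcl2, Bak1 and Bid), although for Bcl2 and Bax the replicates were within 1.01-fold of each other. Bbc3 was at -1.44 on the log2 scale in replicate 1 and at -0.24 in replicate 2. For Bcl2l11 these values were -1.30 and -0.57, and for Bcl2l1 they were -0.69 and -0.22. Bak1 was at -0.32 in replicate 1 and -0.60 in replicate 2. Over the 6 libraries the log2 CPM of Bcl2l11 correlated with that of Bcl2l1 at a Pearson's r of 0.996, with Mcl1 at 0.988 and with Bbc3 at 0.971, and that of Bak1 with Bid at 0.891, whereas Bak1 with Bcl2l11 was at 0.142. These points share their groups and libraries, and the values are a description. Replicate 2 also had the highest mitochondrial share, at 11.5%, and its part in these differences was not tested.

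**Figure D3:**
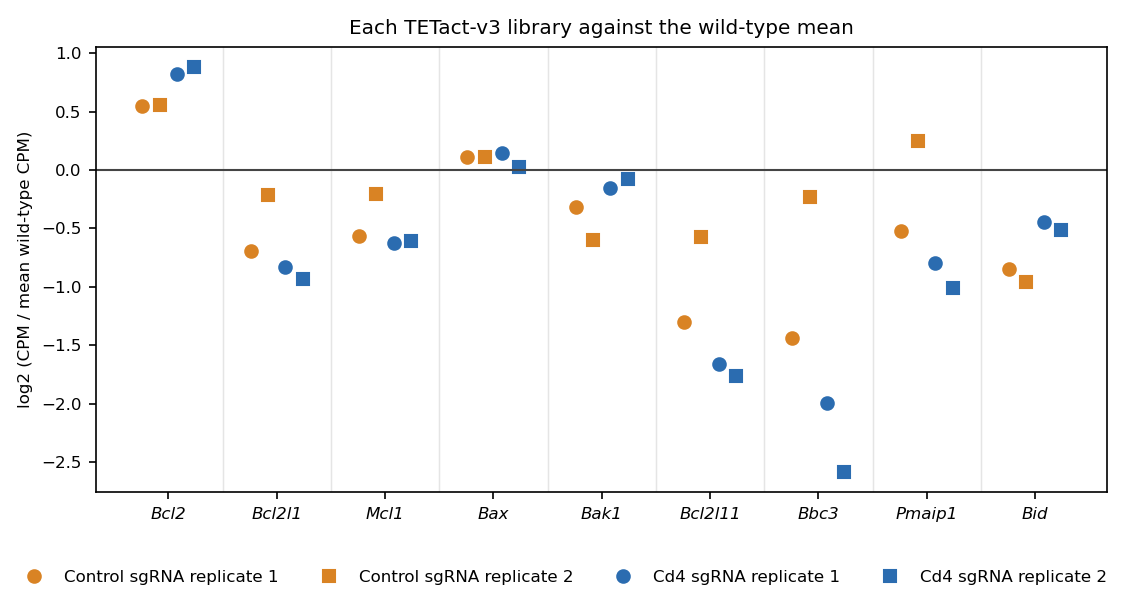
Log2 ratio of CPM to the mean wild-type CPM (vertical axis; the line at 0 is the wild-type mean) for each TETact-v3 library and each tested member. The Cd4 sgRNA replicates lie farthest apart for Bbc3, at -2.00 and -2.58. Control sgRNA replicate 2 (orange squares) lies above replicate 1 for Bcl2l1, Mcl1, Bcl2l11, Bbc3 and Pmaip1 and below it for Bak1 and Bid.

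Summed by role, the RPKM of the 4 anti-apoptotic members was 343 and 353 in wild-type A20, 220 and 301 in control sgRNA cells and 204 and 194 in Cd4 sgRNA cells. Bcl2l1 made up between 70.5% and 75.4% of this sum in every library and Bcl2 at most 0.165%, so the sum follows Bcl2l1 and Mcl1. The 4 BH3-only members summed to 197 and 194 RPKM in wild-type A20, 94.7 and 129 in control sgRNA cells and 99.4 and 91.5 in Cd4 sgRNA cells. Both sums were lower in every TETact-v3 library than in either wild-type library. The effectors summed to 301 and 306 RPKM in wild-type A20, 292 and 273 in control sgRNA cells and 309 and 300.2 in Cd4 sgRNA cells.

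Ratios between roles, within the 10 members, are described here and were not tested. The sums leave out the further BH3-only genes Bmf and Bad, at 16.9 and 13.7 RPKM in wild-type A20, and the anti-apoptotic Bcl2a1 genes. The ratio of BH3-only to anti-apoptotic RPKM was 0.573 and 0.549 in wild-type A20, 0.487 and 0.471 in Cd4 sgRNA cells and 0.430 and 0.428 in control sgRNA cells. It did not overlap between groups, and the control sgRNA replicates were alike in this ratio although their sums were not. The ratio of effector to anti-apoptotic RPKM was 0.877 and 0.867 in wild-type A20, 1.52 and 1.54 in Cd4 sgRNA cells, and 1.33 and 0.909 in control sgRNA cells, where replicate 2 was close to wild type. Bcl2l11 per Bcl2l1 was 0.270 and 0.275 in wild-type A20, 0.179 and 0.213 in control sgRNA cells and 0.153 and 0.153 in Cd4 sgRNA cells. Bid took 43.9% ± 1.57 (SD, n = 2) of the BH3-only RPKM in wild-type A20 and 64.6% ± 1.45 in Cd4 sgRNA cells, and Bcl2l11 36.5% ± 1.28 and 22.8% ± 0.183. In control sgRNA cells the share of Bid was 50.4% in replicate 1 and 34.3% in replicate 2, on either side of wild type, and that of Bcl2l11 30.4% and 37.2%. With 2 libraries against 2, an exact permutation test of a single ratio cannot give a p below 0.333, and none was run. In bulk RNA, a lower level in all cells and the loss of some cells cannot be told apart.

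**Figure D4:**
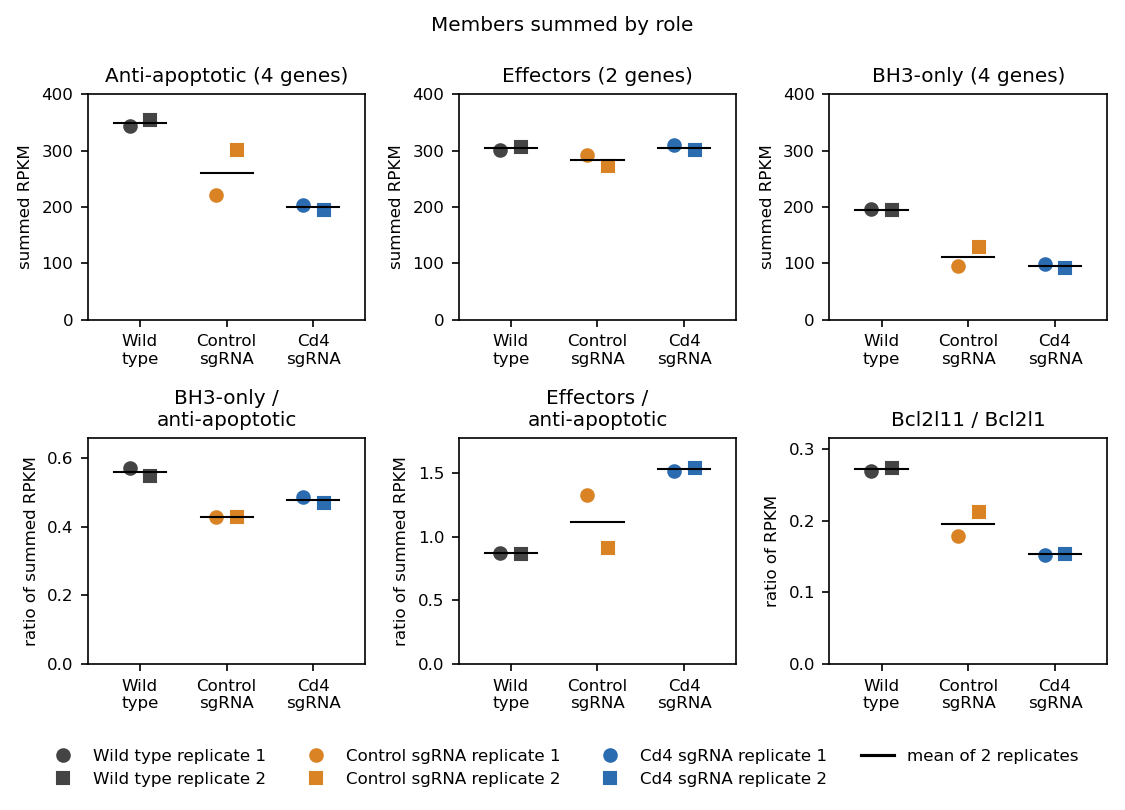
Summed RPKM of the members by role (top row) and ratios between roles or members (bottom row) in the 6 libraries, with axes starting at 0, circles for replicate 1, squares for replicate 2 and lines for the mean of a group. The effector sum stays between 273 and 309, while the anti-apoptotic and BH3-only sums are highest in both wild-type libraries.

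Another 16 family genes were listed, of which 11 were tested and Bcl2a1c, Bcl2l10, Bok, Bik and Hrk were not. Against wild-type A20, 5 fell and 2 rose in control sgRNA cells, and 4 fell and 0 rose in Cd4 sgRNA cells, beside 28% and 20.5% of all genes called in either direction. The median log2 fold change of the 11 was -0.11 and -0.28. Without wild-type replicate 1 neither comparison kept a call, and without wild-type replicate 2 there were 1 lower and 1 higher call in control sgRNA cells and 0 in Cd4 sgRNA cells. Leaving out either Cd4 sgRNA library left 3 lower and 1 higher call in control sgRNA cells, and in Cd4 sgRNA cells 1 lower call without replicate 1 and 0 without replicate 2. Without control sgRNA replicate 1 or 2, Cd4 sgRNA cells had 6 or 8 lower calls, and control sgRNA cells 5 lower and 4 higher.

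The Bcl2a1 genes encode A1, an NF-kB-induced anti-apoptotic protein of lymphocytes. Their copies are near identical and reads may be split between them, so their single values are uncertain. Summed over the 4 copies, the level was 16.1 and 17.4 CPM in wild-type A20, 5.70 and 4.72 in control sgRNA cells and 4.70 and 4.43 in Cd4 sgRNA cells. All 4 TETact-v3 libraries were below both wild-type libraries. Bcl2a1b fell by 2.66 in control sgRNA cells (SE 0.24, edgeR adjusted p = 0.0020) and by 2.69 in Cd4 sgRNA cells (SE 0.29, edgeR adjusted p = 0.0042). For Bcl2a1d the log2 fold changes were -1.39 and -1.66, for Bcl2a1a -1.76 and -1.69, with edgeR adjusted p-values of at most 0.017.

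Of the other BH3-only genes, Bad, an inhibitor of BCL-X under growth factor withdrawal, was at 20.2 and 19.7 CPM in wild-type A20 and between 14.8 and 15.3 CPM in the 4 TETact-v3 libraries. Its log2 fold change was -0.41 in control sgRNA cells (edgeR adjusted p = 0.029) and -0.40 in Cd4 sgRNA cells (edgeR adjusted p = 0.044). Bmf was at 79.5 and 76.9 CPM in wild-type A20, 20.1 and 45.3 in control sgRNA cells and 58.7 and 49.5 in Cd4 sgRNA cells, and it fell in control sgRNA cells by 1.26 (SE 0.35, edgeR adjusted p = 0.043). In Cd4 sgRNA cells the Bmf value was -0.53 (edgeR adjusted p = 0.31).

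Bnip3 and its relative Bnip3l encode BH3-like mitophagy receptors that are induced by hypoxia. Bnip3 was at 133 and 144 CPM in wild-type A20, 301 and 360 in control sgRNA cells and 149 and 131 in Cd4 sgRNA cells, so control sgRNA cells stood above both other groups. It rose in control sgRNA cells with a log2 fold change of 1.25 (SE 0.12, edgeR adjusted p = 0.0025), and Bnip3l with 0.40 (SE 0.10, edgeR adjusted p = 0.035). Between Cd4 sgRNA and control sgRNA cells the values were -1.24 for Bnip3 (edgeR adjusted p = 0.051), -0.61 for Bnip3l (edgeR adjusted p = 0.10) and -1.05 for Bcl2l14 (edgeR adjusted p = 0.14). In Cd4 sgRNA cells Bnip3 was at 0.010 against wild-type A20 (interval -0.29 to 0.31).

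**Figure D5:**
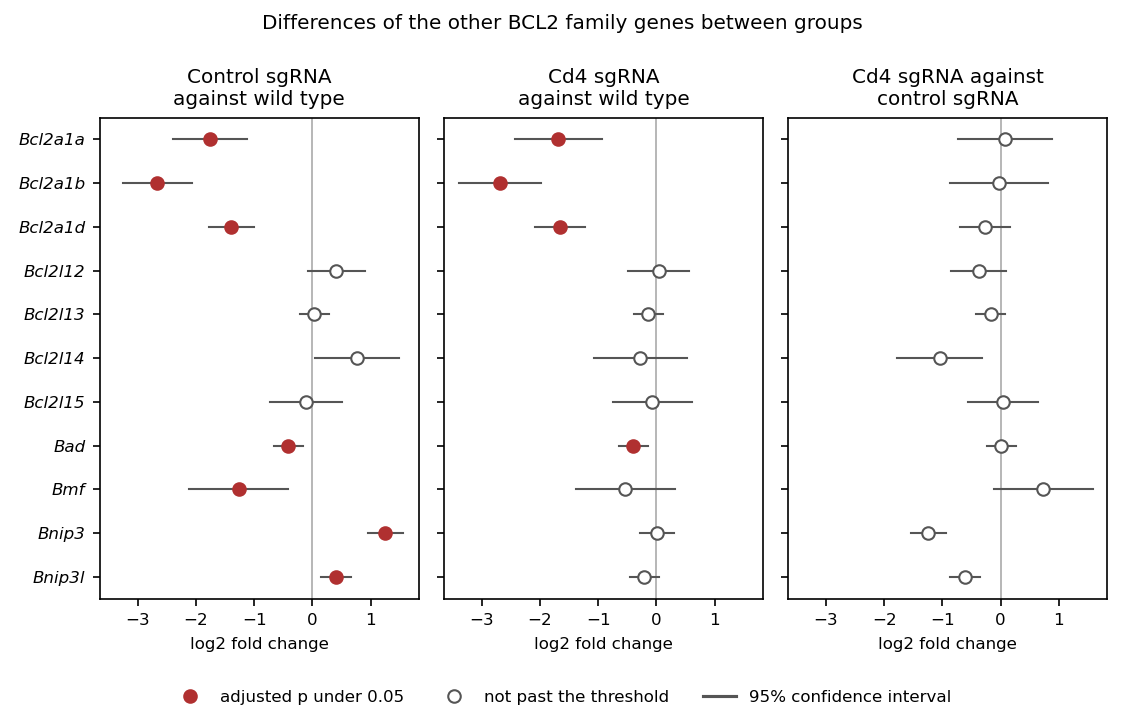
Log2 fold change (horizontal axis) of the 11 tested further family genes (rows) in 3 comparisons (panels), with 95% confidence intervals from the edgeR fit; filled points passed an adjusted p of 0.05. The Bcl2a1 copies lie between -2.69 and -1.39 in both comparisons with wild type, and Bnip3 lies at 1.25 in control sgRNA cells and at -1.24 between the TETact-v3 groups.

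Downstream of the mitochondria, 15 of 16 genes of the apoptosome and caspases were tested. In control sgRNA cells 4 rose and 4 fell, where 28% of all genes were called, and in Cd4 sgRNA cells 1 rose and 2 fell, a share near the 20.5% of all genes. Casp9, the initiator caspase of the apoptosome, fell by 0.46 in control sgRNA cells (edgeR adjusted p = 0.018) and by 0.41 in Cd4 sgRNA cells (edgeR adjusted p = 0.031). Casp2 fell by 0.69 and 0.57 (edgeR adjusted p = 0.012 and 0.027), and Dffb, the nuclease that cuts DNA in apoptosis, by 0.94 in control sgRNA cells (edgeR adjusted p = 0.021). Htra2, a mitochondrial protease that antagonises caspase inhibitors, rose in both, with 0.61 and 0.78 (edgeR adjusted p = 0.023 and 0.016). Of the 7 caspase inhibitors 2 rose in control sgRNA cells, which were Cflar at 0.68 (edgeR adjusted p = 0.0083) and Birc3 at 0.62 (edgeR adjusted p = 0.019), and none was called in Cd4 sgRNA cells. Of 8 tested death receptors and adaptors 2 rose and 1 fell in each comparison with wild type, Ripk1 rising in both with 0.50 and 0.69 (edgeR adjusted p = 0.016 and 0.0096). The receptor gene Tnfrsf10b rose and Cd40 fell in control sgRNA cells (0.56 and -0.56), and Tnf rose and the adaptor gene Tradd fell in Cd4 sgRNA cells (0.60 and -0.40), with edgeR adjusted p-values of at most 0.045. Without either wild-type library no call was kept in these 3 lists, without either Cd4 sgRNA library none was kept in Cd4 sgRNA cells, and without a control sgRNA library the apoptosome and caspase list had up to 8 higher and 4 lower calls.

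Upstream of the BH3-only genes, 17 transcription factors that act on them were tested, of which 5 rose and 4 fell in control sgRNA cells and 1 rose and 3 fell in Cd4 sgRNA cells. Of all genes 28% and 20.5% were called, and the count in Cd4 sgRNA cells was near that share. Foxo1 was at 259 and 269 CPM in wild-type A20, 137 and 166 in control sgRNA cells and 136 and 128 in Cd4 sgRNA cells, and it fell by 0.80 and 1.00 (edgeR adjusted p = 0.0061 and 0.0051). Foxo3 was at 27.2 and 28.6 CPM in wild-type A20, 67.8 and 98.6 in control sgRNA cells and 40.9 and 39.5 in Cd4 sgRNA cells, and it rose in control sgRNA cells with a log2 fold change of 1.58 (edgeR adjusted p = 0.0037). Foxo4, the other FOXO gene called in control sgRNA cells, rose there with 0.46 (edgeR adjusted p = 0.037). Myc fell by 1.22 in control sgRNA cells and by 1.20 in Cd4 sgRNA cells (edgeR adjusted p = 0.0048 and 0.0075), and Atf4, of the integrated stress response, fell by 1.13 and 0.94 (edgeR adjusted p = 0.0025 and 0.0058). E2f1, a cell cycle factor, rose with 0.53 and 0.47 (edgeR adjusted p = 0.013 and 0.024). Without wild-type replicate 1 none of these calls was kept, and without wild-type replicate 2 control sgRNA cells kept 2 higher and 1 lower call, with 0 in Cd4 sgRNA cells. Without either Cd4 sgRNA library 3 rose and 3 fell in control sgRNA cells and at most 1 fell in Cd4 sgRNA cells, and without a control sgRNA library there were up to 8 higher and 7 lower calls.

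Trp53 itself was at 144 and 152 CPM in wild-type A20, 162 and 103 in control sgRNA cells and 145 and 144 in Cd4 sgRNA cells and was called in no comparison. Of 16 tested p53 regulators and targets, 3 rose and 2 fell in control sgRNA cells, and 0 rose and 2 fell in Cd4 sgRNA cells, beside 28% and 20.5% of all genes called in either direction. The median log2 fold changes of the list were -0.17 and -0.13. Trp73, a p53 relative, had the largest difference, at 0.861 and 1.21 CPM in wild-type A20, 11.1 and 23.9 in control sgRNA cells and 2.75 and 2.28 in Cd4 sgRNA cells, with a log2 fold change of 4.15 in control sgRNA cells (edgeR adjusted p = 0.0045). Aen and Zmat3 fell in control sgRNA cells by 0.91 and 0.35, and Btg2 and Rrm2b fell in Cd4 sgRNA cells by 1.25 and 0.54 (edgeR adjusted p = 0.029, 0.037, 0.020 and 0.046). At an unadjusted p under 0.05 there were 8 of the 16 in Cd4 sgRNA cells, against 37.6% of all genes, and 11 of the 16 log2 fold changes were negative. Among those that did not pass the threshold there, Gadd45a was at -2.26 (edgeR adjusted p = 0.056), Trp53inp1 at -1.53 (edgeR adjusted p = 0.063) and Cdkn1a, a cell cycle inhibitor, at -0.93 (edgeR adjusted p = 0.11). In the same comparison 5 of the 16 log2 fold changes were positive, up to 1.34. Without any one library of wild-type A20 or Cd4 sgRNA cells the list had no call in Cd4 sgRNA cells and at most 2 higher and 0 lower in control sgRNA cells, and without a control sgRNA library there were up to 4 higher and 9 lower.

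Of 11 genes of mitochondrial channels and MCL1 turnover, 1 rose and 1 fell in control sgRNA cells, where 28% of all genes were called. In Cd4 sgRNA cells 1 rose and 2 fell, beside 20.5% of all genes called. Huwe1 rose in both groups. Prelid1, which guards cardiolipin in mitochondria, fell by 0.67 in control sgRNA cells (edgeR adjusted p = 0.011) and by 0.91 in Cd4 sgRNA cells (edgeR adjusted p = 0.0069). Trib1, an adaptor of ubiquitin ligases, fell in Cd4 sgRNA cells by 0.99 (edgeR adjusted p = 0.018). Between Cd4 sgRNA and control sgRNA cells edgeR called 0 genes in each of these lists of cell death genes. At an unadjusted p under 0.05 there were between 2 and 7 genes in a list, and DESeq2 called between 1 and 5. The smallest p-values belonged to Trp73 (log2 fold change -2.80), Foxo3 (-1.05) and Trib1 (-0.98), each at an edgeR adjusted p of 0.10. Without either wild-type library the channel and MCL1 turnover list had no call, without either Cd4 sgRNA library it had none in Cd4 sgRNA cells, and without a control sgRNA library it had up to 5 higher and 4 lower.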

How the data were processed

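The 6 libraries of A20 RNA were assigned to 3 groups of 2 by the sample labels. Per the labels and the study's methods, polyadenylated RNA was sequenced as paired ends, and the authors aligned reads to mm10 (GRCm38) with Rsubread, then used featureCounts with the RefSeq annotation built into it to count reads by Entrez gene. The deposited values are raw counts per gene, without normalization. The strand setting is not given in the sources used here. The joint table holds the same counts and was not used.

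Genes were kept by filterByExpr over all 27179 rows and by the presence of a symbol in RefSeq GRCm38.p6 (25275 matched), leaving out mitochondrial and rRNA genes as the study did, so that 12418 were tested. They covered 86.0% to 95.0% of the counts in a library, and library totals were 23194920 to 121623410. Libraries were scaled by TMM, and CPM and RPKM were computed from the counts, these factors and the deposited exon lengths. The test was edgeR 4.0.16 (glmQLFit and glmQLFTest, robust, 1 term per group, two-sided, all 6 libraries), and p-values were adjusted by Benjamini-Hochberg with a threshold of 0.05. The standard error of a log2 fold change was its size over the root of F. voomLmFit (limma 3.58.1), the study's own test, and DESeq2 1.42.0 were alternatives, in R 4.3.3, beside other scalings and filters, the 2 groups alone, thinned control sgRNA counts, a replicate block and each library left out. The older quasi-likelihood setting of edgeR was added after seeing the data. Scripts were tested on simulated data. No set test was run. Some genes of the lists are not reported here.

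The 10 members, the gene lists and the markers were chosen with earlier results of these data known. Named beyond the members are the other family genes, at most 4 genes past the threshold per list and comparison by p-value, at most 2 per list at an unadjusted p under 0.05 between the TETact-v3 groups, and for the member with the smallest p-value, Bid, the 3 genes with the highest correlation. Named outside this rule were Cd4, the cell type markers, Trp53, Foxo4, Gadd45a, Trp53inp1 and Cdkn1a. Trp53, Trp73 and Tnfrsf10b stand in more than one list.

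Same-numbered replicates did not deviate together, with correlations of 0.014, -0.035 and -0.14 between groups. Promoters were the 250 bases before each RefSeq start, searched on both strands for TGTTTAC. Also searched there, with no result given here, were CACGTG (E-box), ACGTG (hypoxia response core, held within the E-box), TATAAA (core promoter box) and CCAAT (NF-Y site). The same holds for GGGCGG (GC box) and TTTCGCGC (E2F site). The NF-kB and p53 half-site motifs were searched too. Exon overlaps were taken from GENCODE M21 (GRCm38).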

Additional observations from a re-analysis of the deposited data

How the results depend on the processing

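Over 17 alternatives for each of 27 log2 fold changes of members, 382 values kept their direction and side of the threshold, 37 passed it newly, 38 lost it and 2 turned. The 2 that turned were Bax between Cd4 sgRNA and control sgRNA cells (from -0.081 without Cd4 sgRNA replicate 1 to 0.039 without replicate 2) and Pmaip1 between control sgRNA and wild-type cells (from -0.52 without control sgRNA replicate 2 to 0.27 without replicate 1). DESeq2 called 1 member higher and 3 lower between Cd4 sgRNA and control sgRNA cells and 5 lower between control sgRNA and wild-type cells. Fitting the 2 groups alone left 1 lower call in the latter, and 1 random thinning of the control sgRNA counts gave 1 higher call there. In Cd4 sgRNA against wild-type cells, the 2 groups alone gave 7 lower calls and 1 higher. The single higher call in Cd4 sgRNA against wild-type cells became 0 with voomLmFit, without a filter on low counts and with the replicate block. The block, added although the numbers did not pair the libraries, otherwise left 3 lower calls in control sgRNA and 5 in Cd4 sgRNA cells against wild type and 0 between them. The cause of these differences was not tested.

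With 1 library left out, higher and lower calls ranged from 0 to 2 and from 0 to 7 in control sgRNA against wild-type cells, from 0 to 1 and from 0 to 6 in Cd4 sgRNA against wild-type cells, and from 0 to 2 and from 0 to 5 between Cd4 sgRNA and control sgRNA cells. A group left with 1 library is assumed to vary like the others. Calls were fewer without a wild-type or Cd4 sgRNA library and more without a control sgRNA library, as over all genes, where higher and lower calls between Cd4 sgRNA and wild-type cells (1223 and 1327) were 47 and 34 without wild-type replicate 1 and 4151 and 3444 without control sgRNA replicate 1. For control sgRNA against wild-type cells (1803 and 1675) these were 63 and 53, and 4225 and 3987. The 3 higher and 6 lower calls between the TETact-v3 groups were 1 and 0 without any one wild-type or Cd4 sgRNA library and 3883 and 3955 without control sgRNA replicate 1. Fitting 2 groups alone gave 835 and 734 calls in control sgRNA and 3769 and 3683 in Cd4 sgRNA against wild-type cells. Between the TETact-v3 groups it gave 1 and 0. For the last comparison DESeq2 gave 529 and 877, with 723 adjusted p-values not given, voomLmFit 1 and 6, no filter 5 and 13, and thinned counts 5 and 11. Depth limits Bcl2, at 33 to 220 counts, and Bcl2l2, at 0 to 5.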
